A study of Mus musculus with 4 samples.

Results

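The constant genes of the T cell receptor were followed across 4 single-cell libraries of colon intraepithelial lymphocytes. The members are the 7 constant genes named for this comparison: Trac, Trbc1 and Trbc2, which encode the constant regions of the α and β chains, and Trdc, Tcrg-C1, Tcrg-C2 and Tcrg-C4, which encode those of the δ and γ chains. They were chosen by name, with earlier results of these data known, and they are 7 of the 15301 genes listed in any library. Each of the 4 libraries lists all 7, and each member had at least 100 UMIs (unique molecular identifiers, 1 per captured transcript) over the libraries of every comparison below.

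A T cell builds its receptor from 2 chains, either α with β or γ with δ, by joining variable and joining segments upstream of a constant gene. The receptor reaches the cell surface only together with the CD3 proteins, which carry the signal inwards. The δ genes lie inside the α locus, so that a completed α rearrangement on a chromosome removes the δ genes there, whereas β and γ loci can be rearranged or transcribed in cells of either lineage. The intestinal epithelium is rich in γδ T cells and in αβ T cells that carry the CD8αα homodimer, and both kinds are long-lived residents of that tissue.

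The study sorted live CD3+ CD8alpha+ cells from mouse colon as positive for TCRγ, read here as the TCRγδ sort because the sample titles and the design text call it so, or as positive for TCRβ. Each sort was made from mice labelled Tcf7KO and from mice labelled Tcf7WT, which gives TCRγδ Tcf7KO, TCRγδ Tcf7WT, TCRβ Tcf7KO and TCRβ Tcf7WT, with 1 library each. All 4 carry the same strain label, E8IcreTcf7fl/fl, in which an E8I-driven Cre acts on a floxed Tcf7, the gene of the transcription factor TCF-1, so the labels do not say whether the Tcf7WT mice had the Cre, the floxed allele or neither. RNA was captured at its 3′ end with a droplet kit (10X, version 2 chemistry), and the labels give neither the age of the mice nor how many were pooled.

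The members sit at 3 places in the genome (GRCm38 build, GENCODE M21 annotation). Trdc, at chr14:54142851-54148868, ends 71.7 kb before Trac, at chr14:54220521-54224206, both on the plus strand. Trbc1, at chr6:41538218-41539881, ends 6.85 kb before Trbc2, at chr6:41546730-41548352, also on the plus strand. The γ genes span 139 kb of chromosome 13, with Tcrg-C1 at chr13:19214103-19217024 and Tcrg-C4 at chr13:19344558-19352756 on the plus strand and Tcrg-C2 at chr13:19304649-19307551 on the minus strand. Tcrg-C3, at chr13:19260884-19263528, lies between them and is not a member.

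How far the copies can be told apart decides what the counts of a single β or γ gene mean, so the stretches in which they differ are shown. Trbc1 and Trbc2 were 95.6% identical over 521 coding bases. Their first coding exon differed at 1 of 375 bases and the third at 15 of 107. The third coding exon is printed 5′ to 3′ on the plus strand, from chr6:41539229-41539335 for Trbc1 and chr6:41547772-41547878 for Trbc2, with capitals at each base of Trbc2 that differs from Trbc1.
Trbc1: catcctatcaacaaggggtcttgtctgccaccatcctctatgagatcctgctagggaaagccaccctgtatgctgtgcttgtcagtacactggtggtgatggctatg
Trbc2: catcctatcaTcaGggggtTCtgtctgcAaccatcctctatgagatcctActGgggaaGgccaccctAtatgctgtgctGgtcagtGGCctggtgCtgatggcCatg

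The γ genes were close copies of each other except Tcrg-C4. Tcrg-C1 was 94.6% identical in its coding bases to Tcrg-C2, 96.7% to Tcrg-C3 and 70.6% to Tcrg-C4. Their last coding exon, stop codon included, has 143 bases in each gene and is printed in the direction of transcription, from chr13:19216476-19216618 (plus), chr13:19305060-19305202 (minus), chr13:19263255-19263397 (plus) and chr13:19352201-19352343 (plus), with capitals at each base that differs from Tcrg-C1.
Tcrg-C1: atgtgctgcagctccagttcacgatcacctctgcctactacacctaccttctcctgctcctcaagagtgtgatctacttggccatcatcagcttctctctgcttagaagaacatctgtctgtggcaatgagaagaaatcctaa
Tcrg-C2: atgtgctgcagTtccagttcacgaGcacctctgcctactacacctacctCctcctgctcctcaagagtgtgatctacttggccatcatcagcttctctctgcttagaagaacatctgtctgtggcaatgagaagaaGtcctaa
Tcrg-C3: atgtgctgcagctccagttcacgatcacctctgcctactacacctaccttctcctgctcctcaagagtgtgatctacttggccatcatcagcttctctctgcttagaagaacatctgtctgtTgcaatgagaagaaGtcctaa
Tcrg-C4: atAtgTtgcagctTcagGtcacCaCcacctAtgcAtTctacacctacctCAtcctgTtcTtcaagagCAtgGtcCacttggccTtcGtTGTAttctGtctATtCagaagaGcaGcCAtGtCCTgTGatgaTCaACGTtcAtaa

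Tcrg-C2 differed from Tcrg-C1 at 4 of these bases, Tcrg-C3 at 2 and Tcrg-C4 at 44. Over the last 500 bases of the annotated transcripts, where 3′ reads fall, 16.2% of 50-base windows of Trbc1 were also found in Trbc2, 29.0% of those of Tcrg-C1 in Tcrg-C2, and none of those of Tcrg-C1 in Tcrg-C4. For the non-member Tcrg-C3, 35.5% of its windows were found in Tcrg-C1 and 5.32% of those of Tcrg-C1 in Tcrg-C3. The annotated transcript of Tcrg-C3 ends at its stop codon, so these windows of it are coding sequence. Any overlap past that codon was not measured. How the counting treated a read that fits more than 1 gene is not given in the sources used here. The split between near-identical copies is therefore uncertain, and reads that were dropped or counted more than once would also alter the sums, which was not tested.

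The libraries held 1511, 1888, 5785 and 7603 cells in the order TCRγδ Tcf7KO, TCRγδ Tcf7WT, TCRβ Tcf7KO and TCRβ Tcf7WT, with 6195292 to 20289960 UMIs in all and medians of 2431 to 4366 UMIs per cell. The labelled identity was borne by the markers: after each cell was thinned to 1624 UMIs, Cd3e, a CD3 subunit, had a UMI in 88.4% to 94.1% of cells and Cd8a in 80.5% to 87.8%. Cd8b1, the β chain of the CD8αβ heterodimer, had 0.418 and 5.33 CPM (UMIs per 1000000 UMIs of the library) in TCRγδ Tcf7KO and Tcf7WT, against 96.8 and 114 CPM in TCRβ Tcf7KO and Tcf7WT. Tcf7 itself had 14.6 CPM in TCRγδ Tcf7KO against 45.7 in TCRγδ Tcf7WT, and 107 CPM in TCRβ Tcf7KO against 148 in TCRβ Tcf7WT. It was thus still detected in both libraries labelled Tcf7KO, and a 3′ tag does not show whether the floxed part was lost. The summed level of 12 epithelial markers was 2543, 893, 362 and 458 CPM in the same order, highest in TCRγδ Tcf7KO. TCRβ Tcf7KO lists 10 of the 12. Markers of B and plasma cells summed to 27.4 to 38.1 CPM, of myeloid cells to 14.4 to 57.5 CPM and of stromal and endothelial cells to 7.62 to 19.5 CPM over the 4 libraries. These sums rest on few genes, since a library lists 1 to 3 of 5, 2 of 6 and 1 to 2 of 5 of these markers. NK and ILC markers, 3 to 5 of 5 listed, summed to 259 to 309 CPM. Cd4 had 9.74, 4.79 and 0.296 CPM in TCRγδ Tcf7KO, TCRβ Tcf7KO and TCRβ Tcf7WT and is not listed in TCRγδ Tcf7WT. Cell barcodes shared between any libraries numbered 26, with 1 to 10 per pair.

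Constant transcripts of both kinds were abundant in the TCRγδ sort, whereas the TCRβ sort held mainly the αβ kind. Trac, Trbc1 and Trbc2 together had 2356 and 2284 CPM in TCRγδ Tcf7KO and Tcf7WT, against 3568 and 3693 CPM in TCRβ Tcf7KO and Tcf7WT. Trdc and the 3 γ members together had 2419.9 and 2422 CPM in TCRγδ Tcf7KO and Tcf7WT, against 181 and 199 CPM in TCRβ Tcf7KO and Tcf7WT. The γδ kind made up 50.7% and 51.5% of the constant UMIs of the TCRγδ Tcf7KO and Tcf7WT libraries, against 4.84% and 5.12% in TCRβ Tcf7KO and Tcf7WT. Tcrg-C3 is not a member and is left out of the γδ kind here and below.

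Among the αβ members, Trac, the sole α constant gene, had 395 CPM in TCRγδ Tcf7KO (95% interval 380.3 to 409.5), 482 in TCRγδ Tcf7WT (465 to 499), 902 in TCRβ Tcf7KO (889 to 916) and 970.3 in TCRβ Tcf7WT (957 to 984). No intervals overlapped, and the order ran from TCRβ Tcf7WT down to TCRγδ Tcf7KO. All such intervals cover counting error only, since the spread between libraries of a group was not measured. Trbc1, the upstream β constant gene, had 874 CPM in TCRγδ Tcf7KO (853 to 896), 666 in TCRγδ Tcf7WT (646 to 687), 832 in TCRβ Tcf7KO (819 to 846) and 789 in TCRβ Tcf7WT (777 to 802). TCRγδ Tcf7KO was the highest library for Trbc1 and TCRγδ Tcf7WT the lowest, so that both TCRβ libraries lay between them. Trbc2, the downstream copy, had 1087 CPM in TCRγδ Tcf7KO (1063 to 1112), 1135 in TCRγδ Tcf7WT (1109 to 1162), 1834 in TCRβ Tcf7KO (1814 to 1853) and 1933 in TCRβ Tcf7WT (1914 to 1953). Both TCRγδ libraries lay below both TCRβ libraries, and the intervals of the TCRγδ libraries overlapped.

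Trdc, the sole δ constant gene, had 1905 CPM in TCRγδ Tcf7KO (1874 to 1938) and 1946 in TCRγδ Tcf7WT (1911 to 1981), against 14.7 in TCRβ Tcf7KO (13.0 to 16.6) and 15.4 in TCRβ Tcf7WT (13.8 to 17.2). The intervals of the genotypes overlapped in each sort. Tcrg-C1 had 415 CPM in TCRγδ Tcf7KO (401 to 430.5) and 359.8 in TCRγδ Tcf7WT (345 to 375), against 71.9 in TCRβ Tcf7KO (68.1 to 75.9) and 79.0 in TCRβ Tcf7WT (75.1 to 82.9). It was the γ member that followed the sort. Tcrg-C2 had 70.1 CPM in TCRγδ Tcf7KO (64.2 to 76.5), 81.0 in TCRγδ Tcf7WT (74.1 to 88.4), 66.0 in TCRβ Tcf7KO (62.4 to 69.8) and 71.5 in TCRβ Tcf7WT (67.9 to 75.3). Tcrg-C4 had 29.1 CPM in TCRγδ Tcf7KO, 35.3 in TCRγδ Tcf7WT, 28.8 in TCRβ Tcf7KO and 33.5 in TCRβ Tcf7WT. For Tcrg-C2 and for Tcrg-C4 the intervals of neighbours in the order of levels overlapped throughout. Tcrg-C3, the non-member between them, had 195 and 172 CPM in TCRγδ Tcf7KO and Tcf7WT, against 28.6 and 26.4 CPM in TCRβ Tcf7KO and Tcf7WT.

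**Figure D1:**
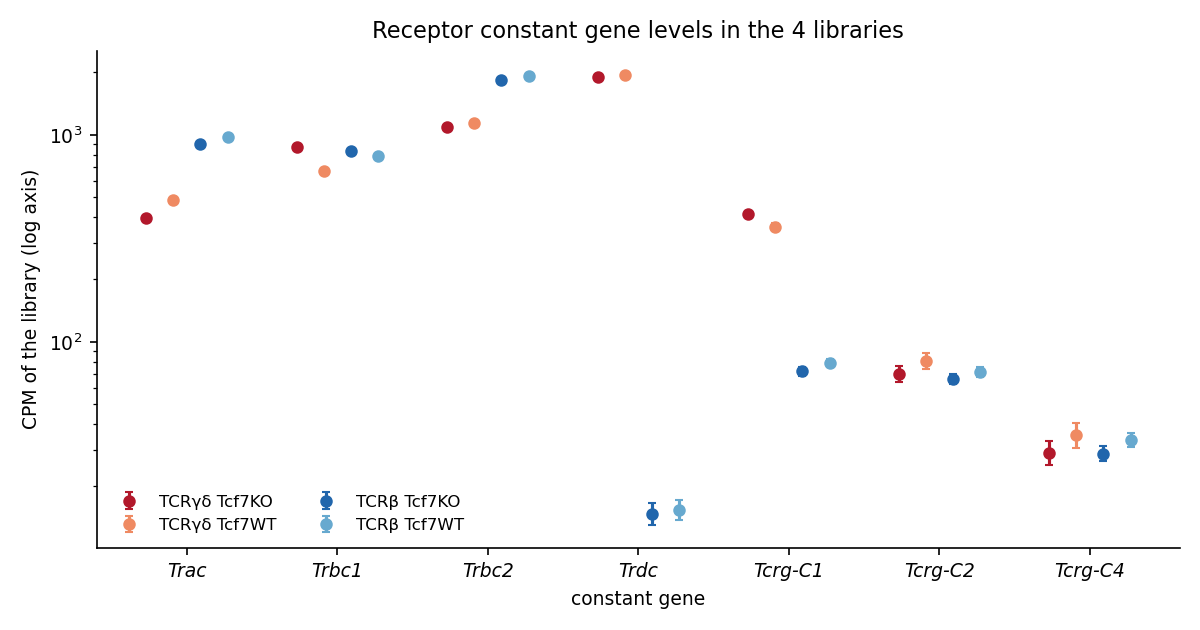
Level of each constant gene in the 4 libraries, in CPM on a log axis, with exact Poisson 95% intervals for counting error as bars (smaller than the point where not seen). Trdc and Tcrg-C1 lie far apart between the sorts (1905 and 1946 CPM against 14.7 and 15.4 CPM for Trdc), Trac and Trbc2 less so, and Trbc1, Tcrg-C2 and Tcrg-C4 lie close together in all libraries.

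The sorts were made on the receptor itself, so the direction of these differences checks the labels and is no finding. Set as TCRγδ over TCRβ, the log2 ratio of Trdc was 7.02 (6.84 to 7.20) in Tcf7KO and 6.98 (6.82 to 7.15) in Tcf7WT. That of Tcrg-C1 was 2.53 (2.44 to 2.62) in Tcf7KO and 2.19 (2.09 to 2.28) in Tcf7WT. The ratios of Trac were -1.19 and -1.01 and those of Trbc2 -0.75 and -0.77 in Tcf7KO and Tcf7WT, so a good part of the αβ level was kept in cells sorted for a γδ receptor. Tcrg-C2 stood at 0.09 (-0.07 to 0.24) in Tcf7KO and 0.18 (0.03 to 0.33) in Tcf7WT, and Tcrg-C4 at 0.01 (-0.23 to 0.25) and 0.08 (-0.15 to 0.30). Trbc1 stood at 0.07 (0.03 to 0.11) in Tcf7KO and -0.24 (-0.29 to -0.19) in Tcf7WT. Past 1.5-fold, the size called here, were 2 members higher and 2 lower in each genotype. Among all genes with at least 100 UMIs over both libraries, 8.45% were higher and 7.2% lower by that size in Tcf7KO, and 6.84% were higher and 6.89% lower in Tcf7WT.

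Between genotypes the log2 ratios of the constant genes lay from -0.29 to 0.39 over both sorts. None of the 7 members reached 1.5-fold in the TCRγδ sort, where 8.03% of 9219 genes did either way (4.61% higher and 3.42% lower). None did in the TCRβ sort, where 3.9% of 10764 genes did (1.66% higher and 2.24% lower). Beside these shares, a count of none among 7 genes says little about the members. In the TCRγδ sort the ratio of Trbc1 lay above that of 92.1% of genes with at least 100 UMIs, and that of Trac above 15.7%. The median log2 ratio of the members, Tcf7KO over Tcf7WT, was -0.06 in the TCRγδ sort and -0.10 in the TCRβ sort, beside -0.03 and -0.07 over all genes with at least 100 UMIs. With 1 library per group no test could be made, and a difference between genotypes cannot be told apart from one between libraries.

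Within the TCRγδ sort, Trac was at -0.29 (-0.36 to -0.21) and Trbc1 at 0.39 (0.33 to 0.45), the lowest and the highest of the 7. The αβ sum hid this split at 0.05 (0.01 to 0.08). Trdc was at -0.03 (-0.07 to 0.01), Tcrg-C1 at 0.21 (0.13 to 0.29), Tcrg-C2 at -0.21 (-0.39 to -0.03) and Tcrg-C4 at -0.28 (-0.56 to -0.00). In the TCRβ sort, Trac was at -0.10 (-0.13 to -0.08), Trbc1 at 0.08 (0.04 to 0.11) and Trbc2 at -0.08 (-0.10 to -0.06). Trac was thus lower and Trbc1 higher in Tcf7KO of both sorts, by less in the TCRβ sort, and the difference between the sorts was not tested. In the TCRβ sort these values depended on the scaling: with TMM factors Trac was at -0.04 and Trbc1 at 0.14. Epithelial markers were higher in TCRγδ Tcf7KO, and without the cells rich in them Trac was at -0.22 and Trbc1 at 0.46 in the TCRγδ sort. Tcrg-C1 stood at -0.14 (-0.24 to -0.03), Tcrg-C2 at -0.12 (-0.23 to -0.00) and Tcrg-C4 at -0.22 (-0.38 to -0.05) in the TCRβ sort, and Trdc at -0.07 (-0.31 to 0.17). The sign of each ratio was the same under every scaling and choice of cells tried, apart from Trbc2 and Trdc in the TCRγδ sort and Trdc in the TCRβ sort, which lay close to 0.

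**Figure D2:**
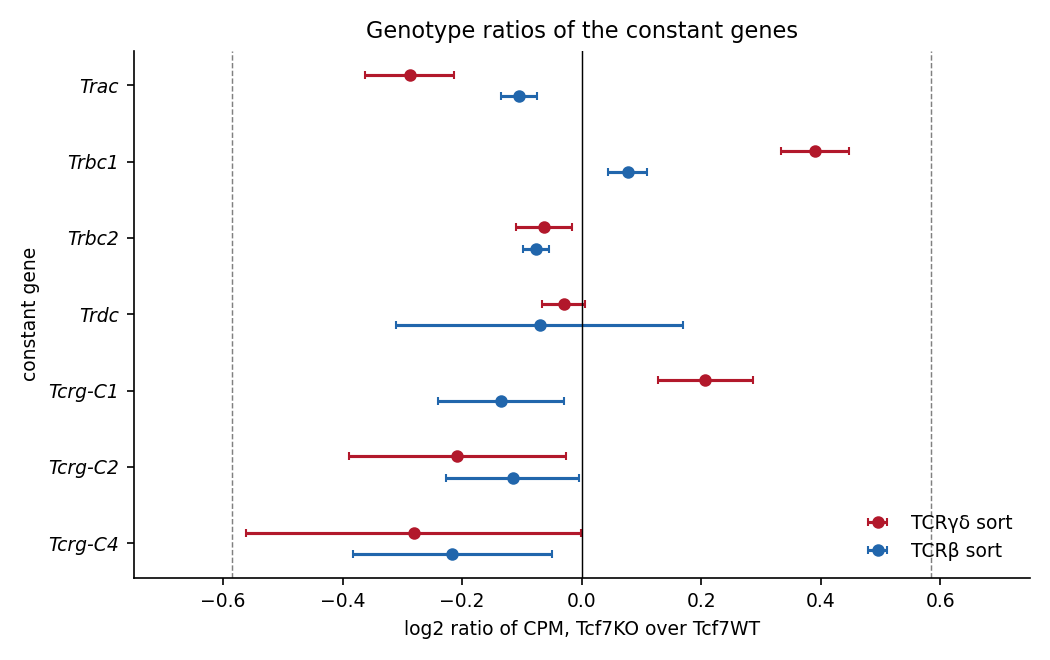
Log2 ratio of CPM, Tcf7KO over Tcf7WT, for each constant gene in the TCRγδ sort (above) and the TCRβ sort (below), with exact 95% intervals for counting error; dashed lines mark 1.5-fold. All points lie inside the dashed lines, with Trbc1 at 0.39 and Trac at -0.29 in the TCRγδ sort as the outermost.

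Between sorts, the share of cells with a transcript followed the levels for Trdc, Tcrg-C1, Trac and Trbc2. All shares of cells below, unless said otherwise, are of cells thinned to 1624 UMIs, which left 1483, 1588, 5296 and 6844 cells in TCRγδ Tcf7KO, TCRγδ Tcf7WT, TCRβ Tcf7KO and TCRβ Tcf7WT and left out 28, 300, 489 and 759 shallower ones. Trdc had a UMI in 91.6% and 91.2% of TCRγδ Tcf7KO and Tcf7WT cells, against 1.76% and 1.64% of TCRβ Tcf7KO and Tcf7WT cells. Tcrg-C1 had one in 44.0% and 39.2% of TCRγδ Tcf7KO and Tcf7WT cells, against 9.89% and 10.9% in TCRβ Tcf7KO and Tcf7WT. Detection of a γδ receptor transcript in the TCRγδ sort therefore rested mainly on Trdc. Trbc2 had a UMI in 76.7% and 76.4% of TCRγδ Tcf7KO and Tcf7WT cells, against 89.1% and 90.5% in TCRβ Tcf7KO and Tcf7WT. Trac had one in 43.1% and 48.7% of TCRγδ Tcf7KO and Tcf7WT cells, against 71.4% and 74.0% in TCRβ Tcf7KO and Tcf7WT. Trbc1 had one in 57.9% (55.4% to 60.5%) of TCRγδ Tcf7KO and 48.2% (45.8% to 50.7%) of TCRγδ Tcf7WT cells, so its higher level in Tcf7KO came with more cells in which it was seen. In TCRβ Tcf7KO and Tcf7WT cells the share was 48.4% and 46.2%. TCRγδ Tcf7WT, the lowest library in Trbc1 level, was thus not the lowest in share. Tcrg-C2 ranged from 9.51% to 11.5% and Tcrg-C4 from 4.38% to 6.30% over the 4 libraries. In whole, unthinned cells the shares were higher, such as 97.7% and 95.1% for Trdc in TCRγδ Tcf7KO and Tcf7WT, against 2.33% and 2.28% in TCRβ Tcf7KO and Tcf7WT.

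Co-detection of both kinds was the rule in the TCRγδ sort and the minority state in the TCRβ sort. Tcrg-C3 was not counted, so a cell with that gene alone counts as without the γδ kind. At equal depth, 89.0% of TCRγδ Tcf7KO cells (87.3% to 90.6%, 1320 of 1483) and 86.6% of TCRγδ Tcf7WT cells (84.9% to 88.3%, 1376 of 1588) had at least 1 UMI of each kind. In the TCRβ sort it was 23.5% of Tcf7KO cells (22.4% to 24.7%, 1247 of 5296) and 25.2% of Tcf7WT cells (24.1% to 26.2%, 1722 of 6844). The genotypes of a sort thus lay within a few percentage points of each other, with overlapping intervals. Cells with the γδ kind alone were 6.14% and 7.87% of TCRγδ Tcf7KO and Tcf7WT cells, and 0.227% and 0.219% of TCRβ Tcf7KO and Tcf7WT cells. Cells with the αβ kind alone were 3.03% and 4.35% of TCRγδ Tcf7KO and Tcf7WT cells, and 74.7% and 73.6% of TCRβ Tcf7KO and Tcf7WT cells. In whole cells both kinds were found in 96.9%, 92.6%, 36.9% and 35.2% of TCRγδ Tcf7KO, TCRγδ Tcf7WT, TCRβ Tcf7KO and TCRβ Tcf7WT. When 2 UMIs of each kind were asked for, the shares at equal depth were 67.9%, 66.3%, 4.68% and 5.29% in that order.

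**Figure D3:**
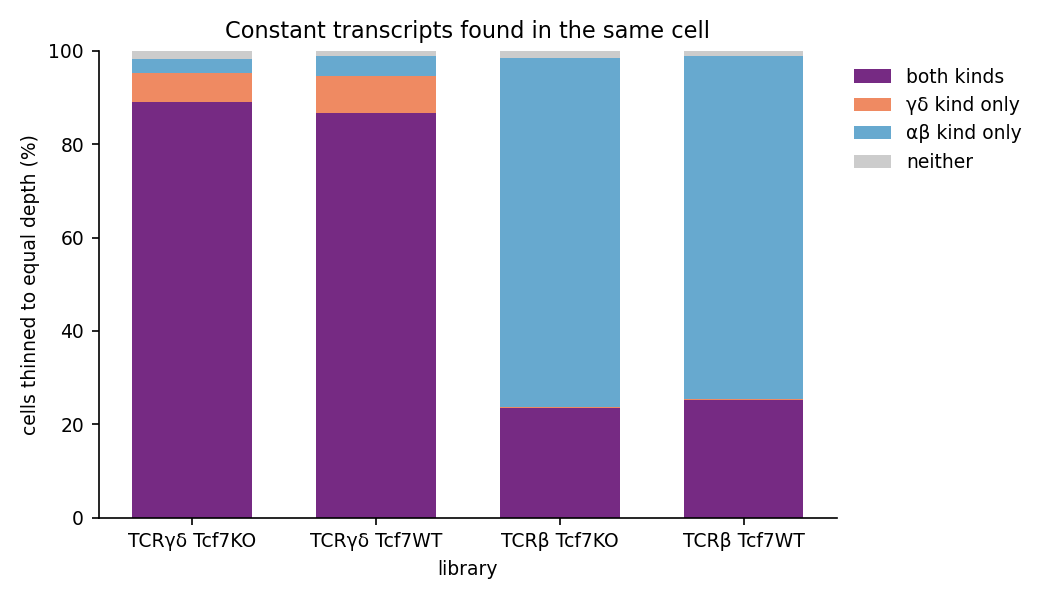
Share of cells, thinned to equal depth, with αβ constant transcripts, γδ constant transcripts (Tcrg-C3 not counted), both or neither, in each library. Cells with both kinds fill 89.0% and 86.6% of the TCRγδ bars and 23.5% and 25.2% of the TCRβ bars, and nearly all other TCRβ cells show the αβ kind alone.

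Free RNA in the droplets can give a UMI to a cell that does not make the transcript, so cells that should lack receptors were read beside these shares. Cells with at least 1% of their UMIs from the 12 epithelial markers, a threshold set after the values were seen, numbered 18, 18, 3 and 11 in TCRγδ Tcf7KO, TCRγδ Tcf7WT, TCRβ Tcf7KO and TCRβ Tcf7WT. The 36 of the TCRγδ libraries held 531669 UMIs, with a median of 7057 per cell, and not 1 αβ constant UMI. A count of 0 allows up to 8.33% of such cells, or a level of 5.64 CPM, which compares with the 2356 and 2284 CPM of whole TCRγδ Tcf7KO and Tcf7WT libraries. Trdc had 4 UMIs there, in 4 of the 36 cells. Their median depth was 23409 UMIs in TCRγδ Tcf7KO and 2558.5 in TCRγδ Tcf7WT, against 4366 and 3188 UMIs in the whole libraries. The CPM are therefore not a like measure, and the part of free RNA in TCRγδ co-detection was not tested. The 14 of the TCRβ libraries, with a median of 14350 UMIs, held 4 αβ UMIs and no γδ UMI. That allows up to 21.4% of cells or 12.5 CPM. Whole TCRβ Tcf7KO and Tcf7WT libraries had 181 and 199 CPM of the γδ kind. A γδ UMI was found in 37.0% and 35.3% of their whole cells, and in 23.8% and 25.4% at equal depth. Their median depths of 2860 and 2431 UMIs were far below that of the 14 cells, so the CPM are not a like measure. With 14 cells the part of free RNA in TCRβ co-detection was not tested. Doublets, droplets with more than 1 cell, were called with Scrublet, which marked 6, 3, 1 and 1 cells in the order above. With so few of over 5000 cells in each TCRβ library the caller has not worked there, and the part of doublets in co-detection was not tested.

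Within single cells of the TCRγδ sort the kinds were about balanced. In whole cells with at least 5 constant UMIs, the γδ share of the constant UMIs had a median of 50% in TCRγδ Tcf7KO and 52% in TCRγδ Tcf7WT, with quartiles of 38.5% and 66.7% in Tcf7KO and 37.5% and 66.7% in Tcf7WT. Shares spread over the whole range in one broad hump. Cells with γδ UMIs alone were 0.889% and 1.19% of TCRγδ Tcf7KO and Tcf7WT cells, and cells with αβ UMIs alone were 0.205% and 0.716%. In TCRβ Tcf7KO and Tcf7WT the median was 0% and the upper quartile 9.09% in both. A γδ share of at least 50% was seen in 55.0% and 57.6% of TCRγδ Tcf7KO and Tcf7WT cells, against 0.281% and 0.406% (14 and 26 cells) in TCRβ Tcf7KO and Tcf7WT. The amount of one kind depended little on the other: at equal depth, TCRγδ Tcf7KO cells with 1 to 2, 3 to 5 and 6 or more αβ UMIs had means of 3.91, 4.05 and 4.33 γδ UMIs, and TCRγδ Tcf7WT cells 3.88, 4.003 and 4.05, with SDs over cells of 2.29 to 2.74. Cells without αβ UMIs had 3.20 in Tcf7KO and 3.59 in Tcf7WT, and 3.78 and 3.89 once the 18 and 11 epithelial-rich cells among them were left out.

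**Figure D4:**
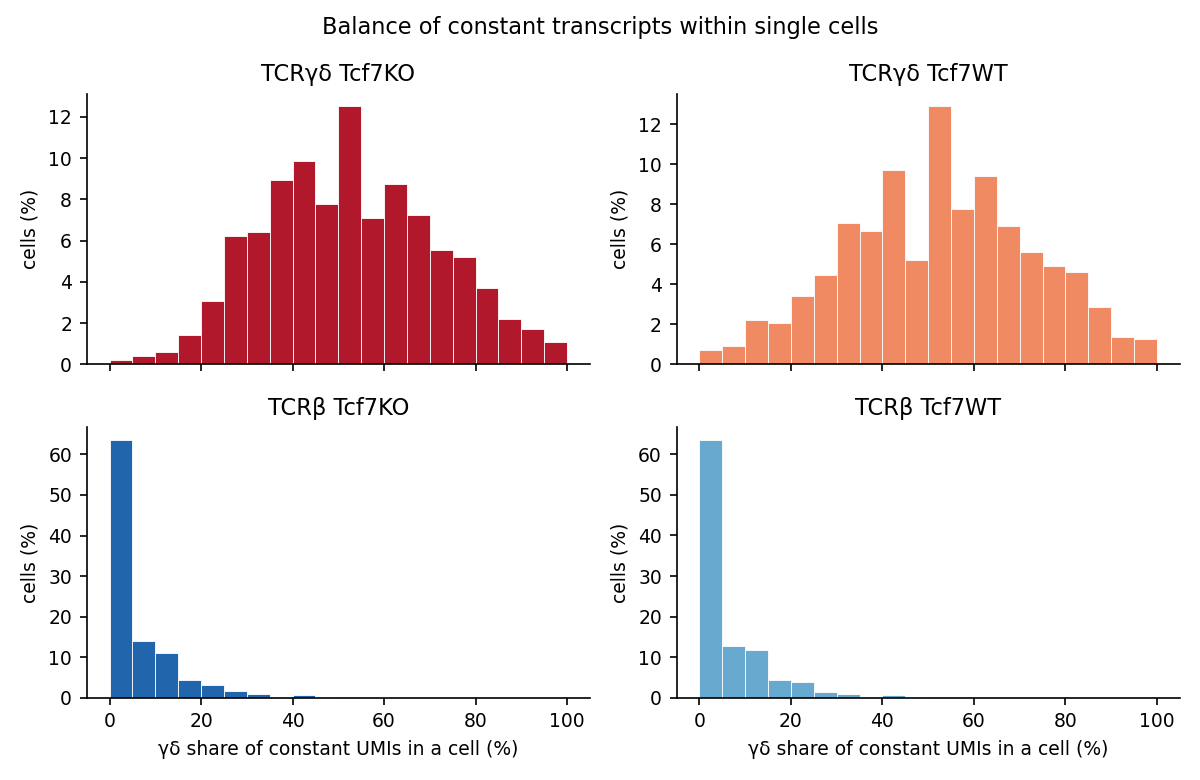
Share of a cell's constant UMIs that came from the 4 γδ members, for whole cells with at least 5 constant UMIs, in bins of 5 percentage points (x axis, %; y axis, % of cells, on different scales for the sorts). The TCRγδ libraries form a broad hump around medians of 50% and 52%, while 63.6% and 63.5% of TCRβ Tcf7KO and Tcf7WT cells fall in the lowest bin.

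Pairs of single genes were read in the same thinned cells. The TCRγδ cells without a Trdc UMI numbered 124 in Tcf7KO and 139 in Tcf7WT, of which 18 and 11 were epithelial-rich, and those are left out of the values that follow. Trbc2 was found in 77.9% of TCRγδ Tcf7KO cells with a Trdc UMI and 74.5% of the remaining 106 without, and in 77.6% of TCRγδ Tcf7WT cells with one and 69.5% of the remaining 128 without. With the epithelial-rich cells the shares without Trdc were 63.7% and 64.0%. Trac was found in 43.4% of TCRγδ Tcf7KO cells with a Trdc UMI and 46.2% of those without, and in 48.3% and 57.8% of the TCRγδ Tcf7WT cells. In the TCRβ sort, where all cells are included, Trac was found in 76.9% of Tcf7KO cells with a Tcrg-C1 UMI and 70.8% of those without, and in 74.4% and 73.9% of Tcf7WT cells. By Trdc, Trac was found in 62.4% of the 93 TCRβ Tcf7KO cells with a UMI and 71.6% of those without, and in 76.8% of the 112 TCRβ Tcf7WT cells with one and 73.9% of those without. The αβ genes were thus often seen beside a γδ gene in every pair given.

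Most γδ UMIs of the TCRβ sort came from γ genes, but a few cells held clear amounts of Trdc. Of 5785 whole TCRβ Tcf7KO cells 135 had a Trdc UMI, and of 7603 TCRβ Tcf7WT cells 173. Cells with 3 or more Trdc UMIs numbered 29 in TCRβ Tcf7KO and 28 in TCRβ Tcf7WT and held 51.5% and 41.9% of the Trdc UMIs of their library, with 13 and 11 UMIs in the highest cell. Every one of them also had αβ UMIs, at 3675 CPM in Tcf7KO and 3360 CPM in Tcf7WT, close to the levels of 3569 and 3697 CPM in cells without Trdc. Their median depths were 3110 and 3174 UMIs, against 2858 and 2428 UMIs in cells without Trdc. They held 8 and 10 UMIs of δ variable segments and 13 and 10 of Trdj1, a δ joining segment. In the TCRγδ sort, 91.3% of Tcf7KO and 77.0% of Tcf7WT cells had 3 or more Trdc UMIs.

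The constant gene used within a chain differed between the sorts. Trbc1 gave 44.6% of the β UMIs in TCRγδ Tcf7KO (43.7% to 45.4%) and 37.0% in TCRγδ Tcf7WT (36.1% to 37.9%), against 31.2% in TCRβ Tcf7KO (30.8% to 31.6%) and 29.0% in TCRβ Tcf7WT (28.6% to 29.4%). Tcrg-C1 gave 80.7% and 75.6% of the UMIs of the 3 γ members in TCRγδ Tcf7KO and Tcf7WT, against 43.1% and 42.9% in TCRβ Tcf7KO and Tcf7WT. Tcrg-C2 gave 13.6% and 17.0% in TCRγδ Tcf7KO and Tcf7WT, against 39.6% and 38.9% in TCRβ Tcf7KO and Tcf7WT. These splits carry the doubt on shared reads given above.

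Within whole cells, whose depth differed between libraries, both β genes were usually seen together. Among whole cells with at least 3 β UMIs, 81.6% of TCRγδ Tcf7KO (79.4% to 83.7%), 73.0% of TCRγδ Tcf7WT (70.5% to 75.4%), 60.6% of TCRβ Tcf7KO (59.2% to 61.9%) and 57.6% of TCRβ Tcf7WT cells (56.4% to 58.9%) had UMIs of both. Cells with Trbc2 alone were 17.4%, 25.3%, 37.8% and 40.7% in that order, and cells with Trbc1 alone 1.03%, 1.71%, 1.62% and 1.64%. At these depths a cell with Trbc1 and no Trbc2 was rare in every library. At equal depth both β genes were seen in 47.8%, 39.4%, 43.1% and 41.4% of all cells in that order, so that TCRγδ Tcf7WT was then the lowest. For the γ members, among cells with at least 3 γ UMIs, 56.3% of TCRγδ Tcf7KO and 58.9% of TCRγδ Tcf7WT cells had more than 1 gene, against 72.5% of TCRβ Tcf7KO and 77.9% of TCRβ Tcf7WT cells. Tcrg-C1 alone was seen in 43.4% and 41.1% of those TCRγδ Tcf7KO and Tcf7WT cells, against 17.9% and 16.8% in TCRβ Tcf7KO and Tcf7WT. Cells with Tcrg-C2 alone were 2 of 611 and 0 of 431 in TCRγδ Tcf7KO and Tcf7WT, and 17 of 207 and 11 of 244 in TCRβ Tcf7KO and Tcf7WT.

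Variable (V) and joining (J) segments give a second readout of each chain, although 3′ counting reaches them only in part. They were counted per 1000 constant UMIs of their chain, over the segments listed in all 4 libraries. Tcrg-C3 is not counted among the γ constant UMIs. β variable segments had 2.27 UMIs per 1000 β constant UMIs in TCRγδ Tcf7KO (1.55 to 3.21) and 2.96 in TCRγδ Tcf7WT (2.04 to 4.15), against 4.002 in TCRβ Tcf7KO (3.46 to 4.60) and 4.27 in TCRβ Tcf7WT (3.74 to 4.85). β joining segments had 11 in TCRγδ Tcf7KO (9.34 to 12.9) and 14.4 in TCRγδ Tcf7WT (12.3 to 16.8), against 8.11 in TCRβ Tcf7KO (7.33 to 8.94) and 9.27 in TCRβ Tcf7WT (8.48 to 10.1). β constant UMIs of the TCRγδ sort thus came with fewer V and more J UMIs than those of the TCRβ sort in each genotype, with overlapping intervals only for V in Tcf7WT. Only 3 β variable segments, Trbv2, Trbv12-2 and Trbv15, are listed in all 4 libraries. Over the segments that each library lists, the V values were 3.62 and 2.96 in TCRγδ Tcf7KO and Tcf7WT, against 11.4 and 12.1 in TCRβ Tcf7KO and Tcf7WT.

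In the α chain the V values depended on which segments were counted, some of which can also join to δ. α variable segments listed in all libraries had 161 and 145 UMIs per 1000 Trac UMIs in TCRγδ Tcf7KO and Tcf7WT, against 29.3 and 24.4 in TCRβ Tcf7KO and Tcf7WT. Over the segments that each library lists, 20 and 23 in TCRγδ Tcf7KO and Tcf7WT and 82 and 89 in TCRβ Tcf7KO and Tcf7WT, the values were 198 and 176 against 97.1 and 96.7. The leading ones in the TCRγδ sort were Trav15d-2-dv6d-2, with 168 and 133 UMIs in Tcf7KO and Tcf7WT, and Trav15n-2, with 109 and 93 UMIs. Segments named dv can join to either α or δ, and those gave 241 of 457 UMIs in TCRγδ Tcf7KO and 220 of 432 in TCRγδ Tcf7WT, against 83 of 486 in TCRβ Tcf7KO and 119 of 480 in TCRβ Tcf7WT. Without the segments named dv, the listed segments of each library had 80.0 (70.0 to 91.2) and 79.7 (69.9 to 90.5) UMIs per 1000 in TCRγδ Tcf7KO and Tcf7WT, against 88.6 (84.1 to 93.2) and 84.2 (80.2 to 88.4) in TCRβ Tcf7KO and Tcf7WT. Over these unlike sets of segments the higher level in the TCRγδ sort was then gone and the intervals overlapped. Of the 16 shared segments, those not named dv had 76.2 and 71.0 in TCRγδ Tcf7KO and Tcf7WT, against 24.3 and 18.3 in TCRβ Tcf7KO and Tcf7WT. Over this like set the TCRγδ sort thus stayed higher. Trav15n-2 shares its group name with Trav15d-2-dv6d-2 but is not named dv, so its 109 and 93 UMIs remain in both sets. Whether it joins to δ in these cells was not tested. α joining segments had 225 and 287 UMIs per 1000 in TCRγδ Tcf7KO and Tcf7WT, against 302 and 351 in TCRβ Tcf7KO and Tcf7WT, and Traj18, Traj27 and Traj12 were among the 4 leading ones in all libraries.

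In the δ chain, Trdj1 had 1302 and 1527 UMIs in TCRγδ Tcf7KO and Tcf7WT, against 81 and 71 in TCRβ Tcf7KO and Tcf7WT. Trdj1 lies upstream of Trdc, and its level of 181 and 246 CPM in TCRγδ Tcf7KO and Tcf7WT stood against 4.41 and 3.50 CPM in TCRβ Tcf7KO and Tcf7WT. δ variable segments listed in all libraries had 384 and 417 UMIs in TCRγδ Tcf7KO and Tcf7WT, against 155 and 218 in TCRβ Tcf7KO and Tcf7WT. Those of the TCRβ sort were mostly Trdv1 and Trdv2-2, whose genes lie further upstream, with 69 and 61 UMIs in Tcf7KO and 109 and 72 in Tcf7WT. Trdv5 led in the TCRγδ sort with 242 and 200 UMIs in Tcf7KO and Tcf7WT, against 3 and 12 in TCRβ Tcf7KO and Tcf7WT. It overlaps the end of Trdc on the opposite strand, and the strand setting of the counting is not given in the sources used here.

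In the γ chain, variable segments were abundant in both sorts. They had 300.2 and 413 CPM in TCRγδ Tcf7KO and Tcf7WT, against 384 and 364 CPM in TCRβ Tcf7KO and Tcf7WT. Per 1000 UMIs of the γ members this came to 583 and 867 in TCRγδ Tcf7KO and Tcf7WT, against 2305 and 1978 in TCRβ Tcf7KO and Tcf7WT. The TCRβ sort thus held more V UMIs than UMIs of these members. Tcrg-C3 is not in the divisor and would lower each value. It had 1402 and 1068 UMIs in TCRγδ Tcf7KO and Tcf7WT, against 526 and 535 in TCRβ Tcf7KO and Tcf7WT. Trgv2, which lies near Tcrg-C2 on the same strand, led in all libraries with 216 and 264 CPM in TCRγδ Tcf7KO and Tcf7WT, against 286 and 246 CPM in TCRβ Tcf7KO and Tcf7WT. Tcrg-V1 followed with 41.2 and 94.3 CPM in TCRγδ Tcf7KO and Tcf7WT, against 69.9 and 89.8 CPM in TCRβ Tcf7KO and Tcf7WT. Tcrg-V7, which lies upstream of Tcrg-C1 and is the V segment typical of intestinal γδ cells, had 22.8 and 20.02 CPM in TCRγδ Tcf7KO and Tcf7WT and was not among the 4 leading ones in the TCRβ sort. Among joining segments, Trgj1 led in the TCRγδ sort at 21.2 and 23.2 CPM in Tcf7KO and Tcf7WT, against 6.04 and 7.20 CPM in TCRβ Tcf7KO and Tcf7WT. Trgj2 led in the TCRβ sort, at 15.7 CPM in each TCRγδ library, against 18.2 and 20.8 CPM in TCRβ Tcf7KO and Tcf7WT. Trgj1 was thus higher and Trgj2 lower in the TCRγδ sort than in the TCRβ sort.

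**Figure D5:**
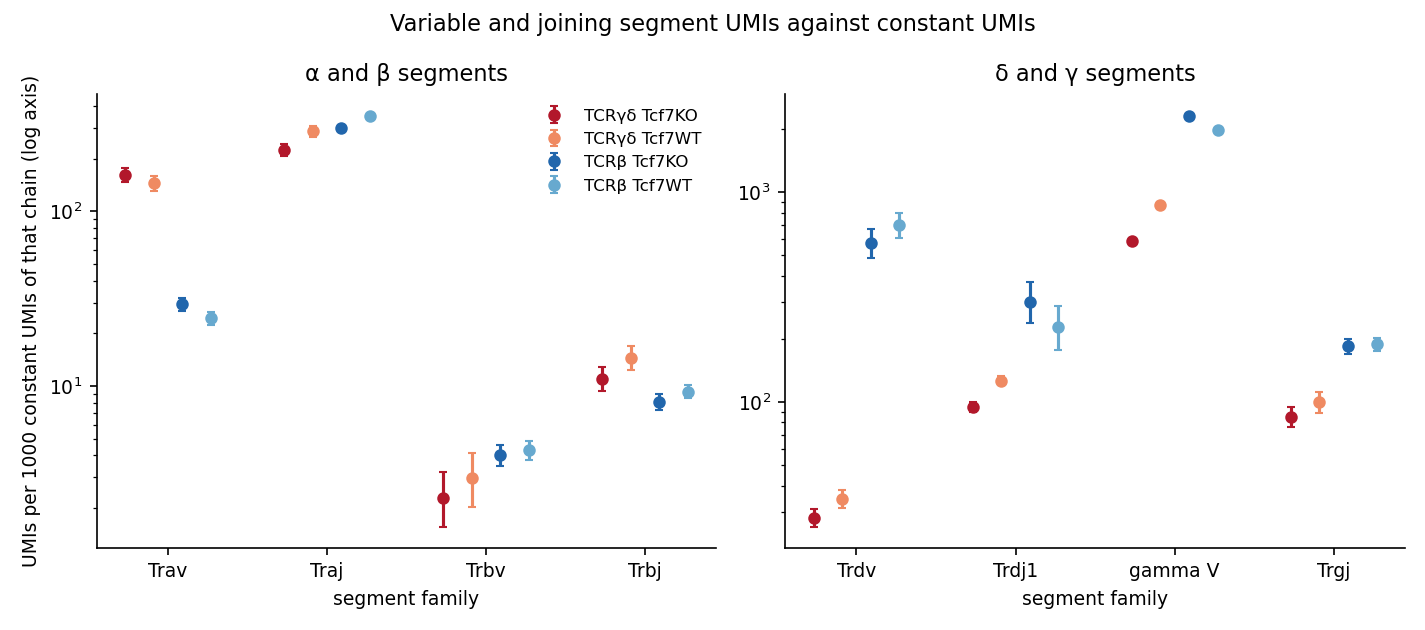
UMIs of variable and joining segments per 1000 constant UMIs of the same chain, on log axes, over segments listed in all 4 libraries, with exact Poisson 95% intervals for counting error in the segment UMIs. β V segments lie lower and β J segments higher in the TCRγδ libraries, and the γ V segments of the TCRβ libraries exceed their constant UMIs (2305 and 1978 per 1000). Tcrg-C3 is not counted among the γ constant UMIs.

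Within the TCRβ sort, cells with a γδ constant UMI had less Cd8b1. In thinned TCRβ Tcf7KO cells, Cd8b1 had 50.4 CPM in the 1259 cells with a γδ UMI against 116 CPM in the 4037 without, a log2 ratio of -1.21 (-1.52 to -0.91). In TCRβ Tcf7WT it had 48.6 CPM in the 1737 cells with a γδ UMI against 139 CPM in the 5107 without, a log2 ratio of -1.51 (-1.78 to -1.26). Cd8b1 was the sole one of 25 genes past 1.5-fold in each library, among the CD3, coreceptor, lineage regulator and natural IEL lists (genes typical of CD8αα cells of the epithelium) with at least 100 UMIs. Of all genes with that many UMIs, 2.14% were past 1.5-fold in TCRβ Tcf7KO (0.817% higher and 1.32% lower) and 1.58% in TCRβ Tcf7WT (0.423% higher and 1.16% lower). The other 24 lay between -0.29 (Klre1) and 0.25 (Klrb1c) in TCRβ Tcf7KO and between -0.38 (Klra1) and 0.49 (Sox4) in TCRβ Tcf7WT. Cd8a stood at 0.08 and 0.09 and Cd3e at 0.08 and 0.10. The lists were chosen with earlier results of these data known. Cells of 1 library share their animals, sort and droplets, so these are descriptions of each library.

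Turned round, TCRβ cells with a Cd8b1 UMI had fewer γδ transcripts, while the interval of their αβ sum took in 0. A γδ constant UMI was found in 16.9% of the 413 TCRβ Tcf7KO cells with Cd8b1 against 24.3% of the 4883 without. In TCRβ Tcf7WT it was found in 15.8% of the 575 cells with Cd8b1 against 26.3% of the 6269 without. Tcrg-C2 was at -0.74 (-1.35 to -0.20) in Tcf7KO and -0.99 (-1.51 to -0.51) in Tcf7WT, cells with over without Cd8b1. Tcrg-C1 was at -0.28 (-0.79 to 0.19) and -0.97 (-1.48 to -0.51), and the αβ sum at -0.02 (-0.08 to 0.04) and -0.05 (-0.10 to 0.00).

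The constant genes were also read in cells with a UMI of Tcf7. In TCRβ Tcf7WT, the 1406 cells with Tcf7 over the 5438 without stood at 0.14 (0.09 to 0.18) for Trbc2, 0.16 (0.09 to 0.24) for Trbc1 and -0.05 (-0.12 to 0.02) for Trac. In TCRβ Tcf7KO the same ratios were 0.09, 0.09 and -0.11. In TCRγδ Tcf7WT, the 107 cells with Tcf7 had more Trdc, at 0.25 (0.10 to 0.40), and more Tcrg-C1, at 0.48 (0.14 to 0.80), than the 1481 without. In TCRγδ Tcf7KO, the 33 cells with Tcf7 stood at -0.26 (-0.58 to 0.04) for Trdc and 0.16 (-0.49 to 0.74) for Tcrg-C1, over the 1450 without.

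A split by Gzma, which encodes the cytotoxic protease granzyme A, differed between libraries. Trbc1 was lower in cells with a Gzma UMI than in those without in TCRγδ Tcf7WT, at -0.65 (-0.78 to -0.51), in TCRβ Tcf7KO, at -0.17 (-0.24 to -0.09), and in TCRβ Tcf7WT, at -0.63 (-0.76 to -0.50). In TCRγδ Tcf7KO it was higher, at 0.26 (0.08 to 0.43). Trdc and Tcrg-C1 were lower in cells with Gzma in TCRγδ Tcf7WT, at -0.35 (-0.43 to -0.26) and -0.54 (-0.73 to -0.35), and in TCRγδ Tcf7KO they stood at -0.06 (-0.17 to 0.05) and -0.17 (-0.41 to 0.07). Cells with a Gzma UMI numbered 1241 of 1483 in TCRγδ Tcf7KO and 931 of 1588 in TCRγδ Tcf7WT, against 1528 of 5296 in TCRβ Tcf7KO and 617 of 6844 in TCRβ Tcf7WT. Epithelial-rich cells, such as 18 in TCRγδ Tcf7KO and 11 in TCRγδ Tcf7WT, were kept in the splits by Gzma and Tcf7. In TCRγδ Tcf7KO an αβ UMI was found in 93.2% of cells with Gzma and 86.4% of those without. The part of epithelial-rich cells in these ratios was not tested. The intervals cover counting error in pooled UMIs and leave out the spread between cells.

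The CD3 genes, whose products form the receptor complex, were read in the same way. None of the 4 CD3 genes reached 1.5-fold between genotypes in either sort or between sorts in either genotype, and Cd3e was at 0.25 (0.21 to 0.29) in the TCRγδ sort and 0.23 (0.21 to 0.25) in the TCRβ sort, Tcf7KO over Tcf7WT. None of 8 genes of receptor assembly and traffic, such as the chaperone genes Calr and Canx, reached it in any comparison. Over all genes, 8.03% and 3.9% did either way between genotypes in the TCRγδ and TCRβ sorts. Between sorts 15.7% did in Tcf7KO and 13.7% in Tcf7WT. Beside these shares, a count of none among 4 or 8 genes says little. The gene lists were chosen with earlier results of these data known, so their counts beside a share of all genes are descriptions only. Of 14 receptor-proximal kinases and adaptors in the TCRγδ sort, 5 were lower by at least 1.5-fold in Tcf7KO and none higher, where 3.42% of all genes were lower. They were Cd6, a scaffold receptor (-2.68), Themis (-1.66), Lat, an adaptor (-1.38), Trat1, which binds the receptor complex (-0.98), and Grap2, an adaptor (-0.60), the last chosen after its value was seen. In the TCRβ sort none of 16 reached it. Lck, the kinase bound to CD8, was at -0.07 in the TCRγδ sort and 0.03 in the TCRβ sort. Of 8 lineage regulators tested in each sort, Maf was higher in both, at 1.18 and 0.84 in the TCRγδ and TCRβ sorts, and Tcf7 (-1.64) and Id3 (-0.96) were lower in the TCRγδ sort. Of the natural IEL genes, 3 of 11 were higher and 1 lower in the TCRγδ sort and 3 of 12 higher in the TCRβ sort. Over all genes, 4.61% were higher and 3.42% lower in the TCRγδ sort and 1.66% higher in the TCRβ sort, for these lists and the regulators alike. None of Ptcra, Rag1, Rag2 and Dntt, genes of the pre-receptor and of recombination, is listed in both libraries of any comparison.

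Genes were ranked by how close the shape of their levels over the 4 libraries lay to that of Trac and to that of Trdc. Of 7193 genes with at least 100 UMIs in each library, Slc14a1, Ltb, Trps1, Arhgap15 and Il6st were nearest to Trac, with root mean square differences of centred log2 CPM of 0.05 to 0.08, against a median of 0.53. Ltb, which encodes lymphotoxin β, had 192 and 224 CPM in TCRγδ Tcf7KO and Tcf7WT, against 433 and 505 CPM in TCRβ Tcf7KO and Tcf7WT. With receptor and immunoglobulin genes left out of both rankings, the nearest to Trdc were Lypd8, Phgr1, Ckmt1, Ceacam1 and Krt8. They stood at 1.85 to 2.22, too far to be called alike. The minimum of 100 UMIs in each library tends to leave out genes with a sort difference as large as that of Trdc. Segments such as Trdj1 were left out as receptor genes. The lack of a near gene therefore cannot be read as a trait of Trdc. Phgr1 and Krt8 are among the epithelial markers, whose level was highest in TCRγδ Tcf7KO. With 4 libraries such likeness is a description only.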

How the data were processed

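The deposited files hold, per library, a sparse matrix of raw UMI counts per gene and cell with its genes and barcodes; per the submitters' processing notes Seurat 3.0.0 and the builds GRCm38 and mm10 were used, with no role stated. The aligner, the counting tool, its strand setting and the filter that set which genes and cells are listed are not given in the sources used here.

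Each gene's counts were added up across a library's cells and scaled to that library's total (CPM). Intervals are exact Poisson for levels, Clopper-Pearson for shares and exact conditional for ratios, at 95%, and cover counting error only. Those for levels and ratios rest on pooled UMIs and leave out the spread between cells. Ratios were computed across all genes listed in both libraries, and 1.5-fold was called among genes with at least 100 UMIs over both. Cells were thinned without replacement to 1624 UMIs, the 10th percentile of the library with the lowest median. No test was possible, since each group has 1 library. Limits from a count of 0 use 3 counts. Doublets were called with Scrublet in scanpy 1.11.5 and kept.

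Alternatives were TMM factors (edgeR 4.0.16) and DESeq2 1.42.0 size factors in R 4.3.3, totals without receptor and immunoglobulin genes, equal cell weights, cell filters, other thinning and 2 UMIs for detection. Other steps used Python 3.11.15, numpy 2.4.6, scipy 1.17.1 and pandas 2.3.3, and the thinning and interval steps were tested on simulated data. Named were all members, in each list up to 4 genes with the largest ratio among those with at least 50 UMIs over both libraries, the identity genes, the 5 genes nearest in pattern (no receptor or immunoglobulin gene) and up to 4 leading segments. Calr, Canx and Lck were named besides, after their values were seen. The members and lists were chosen with earlier results of these data known. Protein sequences were not used here.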

Additional observations from a re-analysis of the deposited data

Results flagged for a closer look

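For Tcrg-C1 the log2 ratio of Tcf7KO over Tcf7WT was 0.21 in the TCRγδ sort and -0.135 in the TCRβ sort, with 1 library per group on each side, and the difference between the sorts was not tested. The αβ sum likewise had opposite signs, 0.045 in the TCRγδ sort and -0.049 in the TCRβ sort, and this difference was not tested. The negative sign in the TCRβ sort did not hold under TMM or DESeq2 scaling.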

How the results depend on the processing

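All ratios here are log2. Of 196 ratios of single members under an alternative, 187 kept their sign, and of 56 ratios of the αβ or γδ sum, 48 did. In the TCRγδ sort, Tcf7KO over Tcf7WT, the αβ sum (0.05) was 0.088 with TMM and 0.090 with DESeq2 factors, 0.13 with equal cell weights, 0.13 in cells of 500 to 3500 genes and 0.11 without epithelial-rich cells, and the γδ sum (-0.00) was 0.042, 0.044, 0.059, 0.076 and 0.064 under these. Trbc2 there (-0.06) was 0.012 with equal weights, 0.023 in cells of 500 to 3500 genes and 0.0027 without epithelial-rich cells. In the TCRβ sort the αβ sum (-0.05) was 0.018 with TMM and 0.015 with DESeq2 factors, so its direction is not settled, and the γδ sum (-0.14) was -0.069 with TMM. For TCRγδ over TCRβ in Tcf7KO, the αβ sum (-0.60) was -0.55 with TMM, -0.55 with DESeq2, -0.54 with equal weights, -0.51 in cells of 500 to 3500 genes and -0.52 without epithelial-rich cells, and the γδ sum (3.74) was 3.82 in both of the last settings. In Tcf7WT the αβ sum (-0.69) was -0.62 with TMM, -0.63 with DESeq2 and -0.73 with equal weights, and the γδ sum (3.60) was 3.68 with TMM and 3.67 with DESeq2. The share of cells with both kinds moved with depth and threshold: in TCRγδ Tcf7KO, TCRγδ Tcf7WT, TCRβ Tcf7KO and TCRβ Tcf7WT it was 73.9%, 72.0%, 14.8% and 16.3% at 1000 UMIs, 96.9%, 92.6%, 36.9% and 35.2% without thinning, and 67.9%, 66.3%, 4.68% and 5.29% with 2 UMIs of each kind. The cause was not tested beyond the construction of each setting. The threshold for epithelial-rich cells, the pair shares without them and the α segments without dv were chosen after seeing the data. No paired analysis was possible because each group holds 1 library, and for the same reason no replicate could be left out. At this depth a cell without a UMI of a gene cannot be taken to lack it.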
